A study of Mus musculus with 10 samples.

Results

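The genes described here are the Sox and T-box transcription factor genes of the mouse, taken by symbol from the autosomal protein-coding genes of GENCODE M1. They number 33, with 17 Sox genes in 8 subgroups and 16 T-box genes in 5 subgroups, of 21281 autosomal protein-coding genes. The X-linked Sox3 and Tbx22 lie outside this choice. Fetal livers came from C57Bl/6 embryos at e14.5, either WT or Mtf2-/- (Pcl2 -/- in the labels and Mtf2-null in the plots), the latter from gene-targeted ES cells. The deletion is constitutive and thus not limited to blood cells. Cells were sorted into CD71+Ter119-/lo pro-erythroblasts and the more mature CD71+Ter119+ erythroblasts (CD71+Ter119high in the labels), with 500000 cells per sample. H3K27me3 was profiled by ChIP-seq in both fractions of both genotypes, and Mtf2 in both fractions of WT cells only, each against an IgG library. That gives 6 peak lists with 1 library per condition, so no difference between conditions below has a replicate test.

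Sox factors bind DNA through an HMG box related to that of Sry, and T-box factors through a domain first described in Brachyury. Both families specify lineages in the embryo, such as neural tissue, endothelium, cartilage, mesoderm, heart and limb. Polycomb repressive complex 2 (PRC2) writes H3K27me3 at the CpG-rich start sites of such genes, and Mtf2 is one of its accessory proteins.

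The start sites span a wide range of CpG content, and 5 stretches are printed because the results below turn on them. Each is 200 bases from NCBIM37, read 5′ to 3′ on the strand of its gene, with every CG in capitals. The first 4 end just before the 5′-most transcription start site (TSS) and the last is centred on a peak summit in an intron; these members were chosen after their values were seen. Tbx2 (chr11:85645853-85646052, + strand) had the strongest H3K27me3 peak of the 33 genes, and its stretch holds 21 CG. Sox11 (chr12:28027575-28027774, - strand) also lay under a peak, with 7 CG. Sox12 (chr2:152223783-152223982, - strand), of the same subgroup as Sox11, had 30 CG and no peak in any list. Tbx5 (chr5:120284472-120284671, + strand) had no CG and no peak in WT CD71+Ter119+ cells, but did have an H3K27me3 peak near its TSS in WT CD71+Ter119-/lo cells. The Sox6 stretch (chr7:122961789-122961988, - strand) lies at a Mtf2 summit, with 15 CG.
Tbx2 promoter: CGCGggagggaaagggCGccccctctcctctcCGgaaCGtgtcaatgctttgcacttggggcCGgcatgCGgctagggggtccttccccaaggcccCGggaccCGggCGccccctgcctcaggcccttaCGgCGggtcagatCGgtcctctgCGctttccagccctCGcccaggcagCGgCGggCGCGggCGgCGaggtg
Sox11 promoter: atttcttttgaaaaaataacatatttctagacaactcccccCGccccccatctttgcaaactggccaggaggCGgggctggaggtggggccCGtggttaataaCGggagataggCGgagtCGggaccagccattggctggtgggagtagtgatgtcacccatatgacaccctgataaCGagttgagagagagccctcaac
Sox12 promoter: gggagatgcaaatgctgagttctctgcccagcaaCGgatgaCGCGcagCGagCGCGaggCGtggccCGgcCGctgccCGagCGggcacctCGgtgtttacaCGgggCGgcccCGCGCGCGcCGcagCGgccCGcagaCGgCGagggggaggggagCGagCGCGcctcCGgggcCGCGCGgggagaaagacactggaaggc
Tbx5 promoter: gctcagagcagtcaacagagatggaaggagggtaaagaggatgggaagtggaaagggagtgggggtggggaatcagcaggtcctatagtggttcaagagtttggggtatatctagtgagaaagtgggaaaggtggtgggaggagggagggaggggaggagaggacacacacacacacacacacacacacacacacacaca
Sox6 intron, Mtf2 peak: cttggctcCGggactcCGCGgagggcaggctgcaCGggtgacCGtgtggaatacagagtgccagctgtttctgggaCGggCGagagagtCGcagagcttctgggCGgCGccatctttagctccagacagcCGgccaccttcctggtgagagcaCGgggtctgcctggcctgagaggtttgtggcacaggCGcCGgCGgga

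Over all 21281 genes the median count of CG in this 200-base stretch was 7, and 90.5% of genes held at least 1. Over the 33 members the median was 11 with a range from 0 to 30, and 32 held at least 1. The letters CG were searched as such, and they read the same on both strands.

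In WT CD71+Ter119+ erythroblasts, H3K27me3 peaks lay at most genes of both families when every called peak was counted. With peaks limited to a false discovery rate (FDR) of at most 5%, 8 of 17 Sox and 6 of 16 T-box genes remained, against 5.71% of all genes. A gene was counted when a peak touched a TSS or the 5 kb up- or downstream of it. By this rule 10 of 17 Sox genes and 9 of 16 T-box genes had a peak, against 12.0% of all autosomal protein-coding genes. Both shares, 58.8% and 56.2%, lay above that background and differed from each other by less than the weight of 1 gene in either family; no test of the difference was made. The marked genes ranged over neural, endothelial, limb, pharyngeal and lymphoid regulators, while no cartilage or neural crest gene of the SoxE subgroup was among them. That subgroup has only 3 genes, too few to tell its count of 0 from the share of all genes. The genes with a peak were Sox2, Sox21, Sox4, Sox11, Sox6, Sox13, Sox7, Sox17, Sox18 and Sox30 in the first family and T, Tbx1, Tbx15, Tbx18, Tbx2, Tbx4, Tbr1, Tbx21 and Eomes in the second.

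**Figure D1:**
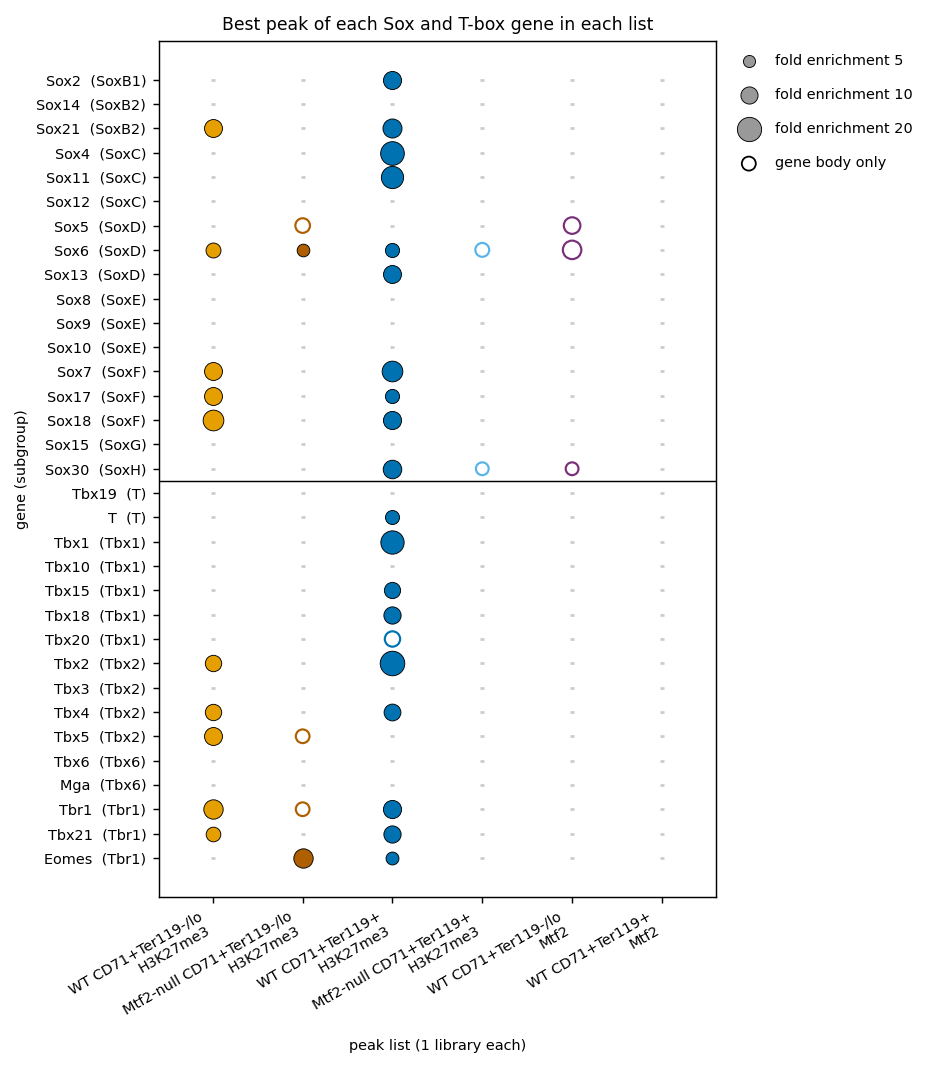
Each row is a gene with its subgroup and each column a peak list of 1 library; the area of a filled circle is the highest fold enrichment over IgG of a peak within 5 kb of a TSS, an open circle is a peak over the gene body only, and a grey dash is no peak. The WT CD71+Ter119+ H3K27me3 column holds 19 filled circles, the Mtf2-/- column beside it none, and both Mtf2 columns none.

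The peaks at the T-box genes included the strongest of the set. Tbx2, a repressor of the limb, heart and eye, carried a 4.81 kb peak over its TSS (chr11:85642626-85647431) with 266 tags, a fold enrichment over IgG of 20.54 and an FDR of 0%. The tag count is the number of reads in the peak, and the FDR is the peak caller's estimate from exchanging ChIP and IgG. A further 2 Tbx2 peaks began within the window, so that 8.23 kb and 440 tags lay in the 3 peaks together. Tbx1, needed for the pharyngeal arches, had a peak over its TSS (chr16:18585303-18587939) with 121 tags and an 18.49-fold enrichment at an FDR of 1.99%. Its second peak lay in an exon 4.71 kb downstream of the nearest TSS, with 96 tags.

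Tbr1, Tbx21 and Eomes form 1 subgroup, and all 3 of 3 members had a peak. Tbr1, a regulator of cortical neurons, had 3 peaks covering 5.08 kb with 238 tags, the best (chr2:61642412-61644414) at 11.23-fold and an FDR of 2.56%. Tbx21, which encodes the T-helper factor T-bet, had a single peak over its TSS (chr11:96975627-96976842) with 48 tags, 10.11-fold and an FDR of 3.25%. Eomes, a factor of early mesendoderm and of cytotoxic lymphocytes, had a peak over its TSS (chr9:118387422-118388975) with 70 tags but only 5.65-fold enrichment and an FDR of 24.74%. The first 2 thus passed an FDR of 5% and Eomes did not.

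In the Tbx1 subgroup 3 of 5 members were marked. Besides Tbx1 these were Tbx18, a gene of the epicardium and somites, and Tbx15, a gene of craniofacial and limb mesenchyme. The Tbx18 peak (chr9:87624139-87625930) lay just downstream of the TSS with 75 tags, 10.12-fold and an FDR of 3.17%. Tbx15 had 2 peaks at separate start sites, of 25 and 42 tags, both with an FDR above 5% (20.23% and 6.02%). Tbx20, a cardiac gene, had a peak only inside the gene, in an intron 37.8 kb from the TSS with 30 tags, and Tbx10 had none.

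In the Tbx2 subgroup Tbx2 and Tbx4 were marked and Tbx3 and Tbx5 were not. Tbx2 and Tbx4 are neighbours on chromosome 11, as are Tbx3 and Tbx5 on chromosome 5, so the split followed the 2 gene pairs. Tbx4, a hindlimb gene, had 3 peaks with 28 to 56 tags, the best supported at an FDR of 3.73%. T, which encodes Brachyury, had only a weak peak 4.18 kb upstream of its TSS (21 tags, 6.74-fold, FDR 29.17%), and its relative Tbx19 had none. Neither Tbx6, a gene of paraxial mesoderm, nor Mga, whose protein pairs with Max, had a peak in any list.

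Among the Sox genes the highest fold enrichment lay at the SoxC genes Sox4 and Sox11, which act in neural and, for Sox4, lymphoid progenitors. Sox4 had 2 peaks, of which the one just upstream of the TSS (chr13:29045662-29046268) had 19.09-fold enrichment from 24 tags and an FDR of 15.93%. The other covered the TSS (chr13:29044700-29045586) with 38 tags, 14.60-fold and an FDR of 4.22%. The Sox11 peak (chr12:28026821-28027844) covered the TSS with 42 tags, 16.83-fold and an FDR of 4.22%. Sox12, the remaining SoxC gene, had no peak.

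All 3 SoxF genes were marked. These genes, Sox7, Sox17 and Sox18, are known from endothelium, where Sox17 also acts in hemogenic cells and fetal hematopoietic stem cells. The Sox7 peak (chr14:64561163-64563011) covered the TSS with 79 tags, 14.60-fold and an FDR of 2.22%. Sox18 had a peak over its TSS and most of the gene (chr2:181404683-181406429) with 56 tags, 11.23-fold and an FDR of 4.33%. The Sox17 peak (chr1:4481484-4482749) was weaker, with 43 tags, 6.85-fold and an FDR of 17.54%, and lay over an exon 4.27 kb downstream of the nearest TSS.

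In the SoxB and SoxH subgroups the peaks were well supported. Sox21, a neural gene, had 2 adjoining peaks (chr14:118633792-118635102 and chr14:118635138-118636585) with 49 and 73 tags, 10.70-fold and 12.35-fold. Sox2, a gene of pluripotent and neural stem cells, had 1 peak of 53 tags and 11.16-fold over its TSS. Sox30, a testis gene, had a peak over its TSS (chr11:45793270-45794975) with 96 tags, 11.74-fold and an FDR of 2.21%. Sox14, of the same subgroup as Sox21, had none.

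SoxD was mixed. Sox13, which acts in gamma-delta T cells, had a peak over its TSS (chr1:135319938-135321239) with 57 tags, 11.00-fold and an FDR of 3.34%. Sox6 is the member with the best known role in red cells, where it silences embryonic globin in definitive erythroid cells. It had 4 peaks within the window that together covered 6.93 kb with 273 tags, the widest coverage of any Sox gene. Their fold enrichments ran only from 5.13 to 6.85 and their FDR from 7.12% to 21.25%, so none passed an FDR of 5%. The longest of them (chr7:123176695-123180044, 142 tags, 5.65-fold) has its summit nearest to the TSS of another coding gene, 1110006G14Rik, and belongs to both windows. Sox5, the partner of Sox6 in cartilage, had no H3K27me3 peak near a TSS.

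Within the 19 marked members the 32 peaks had 21 to 266 tags and 5.13- to 20.54-fold enrichment. The best peak per gene had a median fold enrichment of 11.16, against 8.98 over the 2548 autosomal genes with a peak, and the medians of Sox and T-box genes were 11.5 and 10.11. A best value is higher where a gene has more peaks, and here 32 peaks lay at 19 members, against 2865 at the 2548 genes. Taken singly, the 32 peaks had a median of 9.31, against 8.2 over all peaks of the list, near a TSS or not. The summits lay at a median of 0.523 kb from the nearest TSS, and 16 of the 19 genes had a peak that covered a TSS. The exceptions were Sox17, T and Tbx18. An FDR of 5% or less was reached by 19 of the 32 peaks, and these lay at 8 Sox and 6 T-box genes. With that limit the marked genes number 14 of 33, against 5.71% of all genes, and Sox6, Sox17, T, Tbx15 and Eomes drop out.

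**Figure D2:**
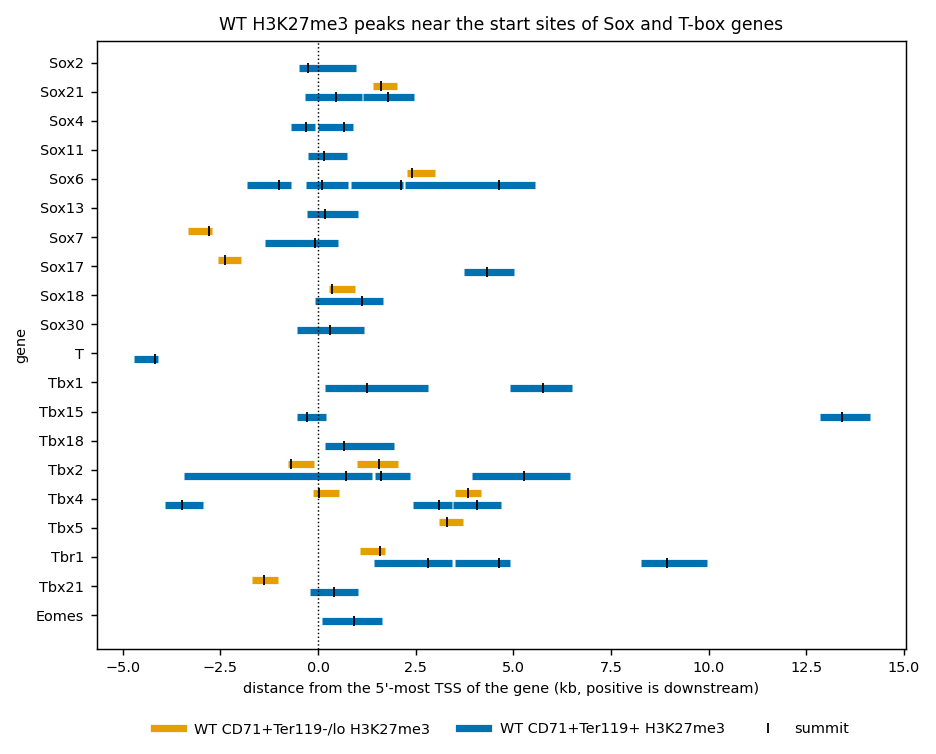
Bars are WT H3K27me3 peaks within 5 kb of a TSS at the 20 members that have one in either fraction, placed by their distance in kb from the 5′-most TSS of the gene; orange is CD71+Ter119-/lo and blue CD71+Ter119+, and black ticks are summits. Blue bars are longer (median 1.33 kb against 0.659 kb), and at Sox7, Sox17 and Tbx21 the orange bar lies apart from the blue one.

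In WT CD71+Ter119-/lo pro-erythroblasts fewer genes of both families were marked, by shorter peaks with fewer tags. Here 5 of 17 Sox genes and 5 of 16 T-box genes had a peak near a TSS, against 3.40% of all genes. They were Sox21, Sox6, Sox7, Sox17 and Sox18, and Tbx2, Tbx4, Tbx5, Tbr1 and Tbx21. As in the more mature fraction, all 3 SoxF genes were among them. The 12 peaks held only 16 to 28 tags each, where 16 is the fewest of any peak in that list, and their FDR ran from 5.43% to 14.95%. None of the 12 passed an FDR of 5%, nor a score of 100, the score being -10 log10 of the peak's p. This was a trait of the whole list, in which 1 of 4992 peaks passed the FDR limit and 216 the score. Among all genes 0.00470% kept a peak near a TSS under the first limit and 0.122% under the second. The median fold enrichment was 10.05 over the 12 peaks against 9.31 over the 32 of the other fraction. The median density was 1.35 against 1.38 tags per kb and per 1000000 unique tags. These medians cover called peaks only, all of at least 16 tags here, so they do not compare the strength of the mark. At the 9 members marked in both fractions the best WT CD71+Ter119+ peaks, scaled to this depth, would hold 27.1 to 168 tags. Here the peaks of those members held 16 to 28. The scaling takes no account of peak length or IgG background.

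The best supported of these peaks lay at Tbx2 (chr11:85647062-85648087), with 28 tags, 9.14-fold and an FDR of 5.43%. Next came 1 of the 2 Tbx4 peaks (chr11:85703429-85704099) with 19 tags and an FDR of 7.74%, and Tbr1 (chr2:61642069-61642705) with 18 tags and an FDR of 9.07%. Sox6 had 21 tags at 7.62-fold (chr7:123179268-123179994). Sox18 (chr2:181405403-181406065), Sox7 (chr14:64559178-64559801) and Sox17 (chr1:4488463-4489061) each had 16 tags, at 14.62-, 10.96- and 10.96-fold. Sox21, Tbx21 and Tbx5 also had 16 tags.

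Both fractions carried a peak at 9 of the 33 members, against 1.75% of all genes. Peaks in CD71+Ter119+ cells alone were found at 10 members (5 Sox and 5 T-box), against 10.2%, and in CD71+Ter119-/lo cells alone at 1 member, Tbx5, against 1.65%. Among the 19 members with a WT CD71+Ter119+ peak, 10 thus lacked one in CD71+Ter119-/lo cells. Over all 2548 genes with a WT CD71+Ter119+ peak, 85.4% lacked one. Of the 12 peaks in the less mature fraction 7 overlapped a WT CD71+Ter119+ peak, at Sox21, Sox6, Sox18, Tbx2, Tbx4 and Tbr1. Over all genes 31.9% of the 712 peaks near a TSS did so. At Sox7, Sox17 and Tbx21 both fractions had a peak, but at separate places. The shared genes at which the same DNA was marked are thus 6 of 9.

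Depth differed between these 2 libraries, with 18945784 unique tags in CD71+Ter119-/lo and 30054186 in CD71+Ter119+ cells, a ratio of 1.59. Scaled by that ratio alone, the best peaks of the 10 members marked in CD71+Ter119+ cells only would hold 13.2 to 76.3 tags in the shallower library. For 9 of the 10 this is at or above the 16 tags of its weakest peak, the exception being T. The scaling takes no account of the IgG background, and its part in the difference was not tested.

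**Figure D3:**
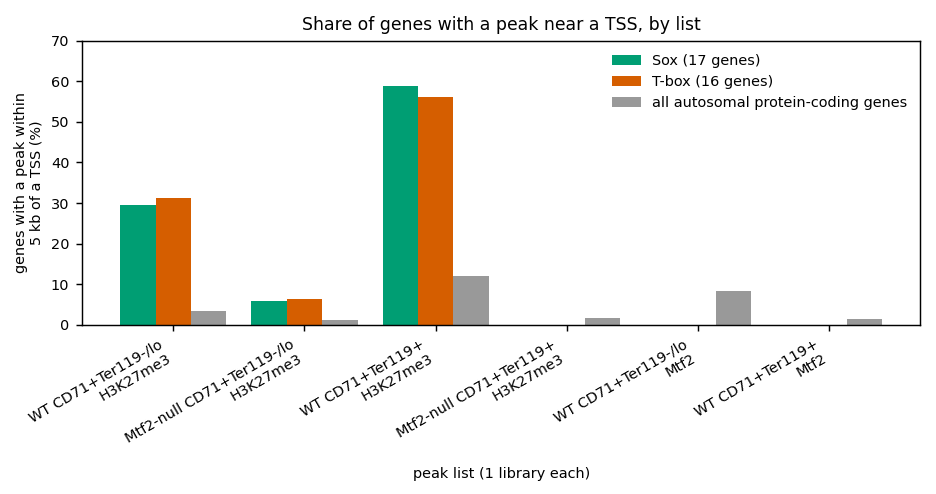
Bars give the percent of genes that a peak reaches within 5 kb of a TSS, for each list (1 library each), for the 17 Sox genes, the 16 T-box genes and all 21281 autosomal protein-coding genes. Both families reach 58.8% and 56.2% in WT CD71+Ter119+ cells against 12.0% of all genes, and have no bar in the Mtf2-/- CD71+Ter119+ list or in either Mtf2 list.

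None of these peaks had a counterpart in Mtf2-/- CD71+Ter119+ cells. No Sox or T-box gene had an H3K27me3 peak within 5 kb of a TSS there, against 1.60% of all genes. As a count, 0 of 33 genes allows a share of up to 9.09%. All 19 marked members therefore lacked a Mtf2-/- peak, from Tbx2 with 266 tags to T with 21, and so did 98.8% of all 2548 marked genes. The loss at these families was that of the fraction as a whole and cannot be set apart from it. The Mtf2-/- library was the deeper one, with 67169672 unique tags, 2.23 times those of the WT library. Scaled by that ratio, the best WT peaks would hold 46.9 to 594 tags. All 19 lie above 35 tags, the fewest of any Mtf2-/- peak in this fraction, where the median peak held 87. The scaling takes no account of the IgG background, and the part of depth was not tested. The nearest Mtf2-/- peak to a member's TSS was 23.2 kb away, at Eomes. A missing peak means that the peak caller's threshold was not reached, and not that the mark was measured as absent.

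In Mtf2-/- CD71+Ter119-/lo cells 2 members had a peak near a TSS, Sox6 and Eomes, against 1.27% of all genes. Every peak of that list has an FDR of 100%, so both are weakly supported. The Sox6 peak (chr7:123178701-123179328) lay in an intron with 25 tags and 5.47-fold enrichment, and it overlapped the WT peak of the same fraction and the longest WT CD71+Ter119+ peak. The Eomes peak (chr9:118383610-118384303) lay 3.14 kb upstream of the TSS with 25 tags and 12.76-fold enrichment, where no WT list has a peak. Of the 10 members marked in WT cells of this fraction, 9 had no Mtf2-/- peak, the exception being Sox6, and over all genes that share was 94.6%. These 9 losses rest on WT peaks of 16 to 28 tags each.

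Mtf2 itself was not found at any start site of either family. In CD71+Ter119-/lo cells 0 of 33 members had a Mtf2 peak within the 5 kb window, against 8.36% of all genes, and in CD71+Ter119+ cells 0 of 33 against 1.47%. As a count, 0 of 33 allows a share of up to 9.09%, so neither count sets the members apart from all genes. None of the 32 WT CD71+Ter119+ H3K27me3 peaks at the members overlapped a Mtf2 peak of either fraction. Such overlap was rare over all genes as well, at 0.454% of the 2865 WT CD71+Ter119+ peaks near a TSS for the Mtf2 list of CD71+Ter119-/lo cells and 0.14% for that of CD71+Ter119+ cells. These Mtf2 lists hold 28918 and 5309 peaks. In the Mtf2 libraries unique tags made up only 34.6% and 39.7%, against 78.4% to 85.4% for H3K27me3.

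The few Mtf2 peaks at these families lay inside introns of 3 Sox genes. A Mtf2 peak in CD71+Ter119-/lo cells lay over the gene body of Sox5, Sox6 and Sox30, that is at 3 of 33 members against 14.6% of all genes, and no T-box gene had one. Sox5 and Sox6 are long genes, of 954 and 567 kb, and 61.4% of all genes of at least 100 kb had a Mtf2 peak over the body. Sox6 had 5 such peaks, with 71 to 133 tags. Of these, 2 were CpG-rich, with a GC content of 64.5% and 66.3% in 1 kb around the summit, 126 and 133 tags and an FDR of 0.04%, and the stretch printed above comes from the second (chr7:122959419-122962484). That summit lay 6.33 kb from an internal Sox6 TSS, just outside the window. The other 3 had a GC content of 37.6% to 41.3%. The Mtf2 list of CD71+Ter119+ cells had no peak over any member, against 4.32% of all genes, a share that 0 of 33 also allows.

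**Figure D4:**
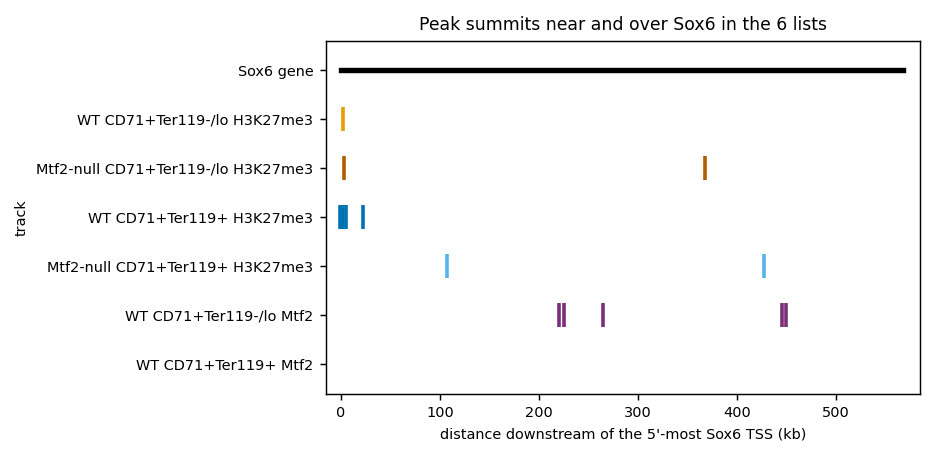
Tick marks are peak summits near and over Sox6 in the 6 lists (1 library each), by distance in kb downstream of the 5′-most TSS; the black line is the gene. WT H3K27me3 summits gather at the start of the gene, whereas the 2 Mtf2-/- CD71+Ter119+ and the 5 Mtf2 summits lie deep inside it.

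Over gene bodies the WT H3K27me3 lists gave much the same picture, largely from the same peaks. In WT CD71+Ter119+ cells only 3 peaks lay over a member's body and outside the 5 kb window, so the body counts are not independent of those above. WT CD71+Ter119+ peaks lay over 19 members (10 Sox and 9 T-box) against 11.9% of all genes, and WT CD71+Ter119-/lo peaks over 7 (3 and 4) against 5.09%. In Mtf2-/- CD71+Ter119+ cells 2 members had a peak over the body, Sox6 and Sox30, against 4.15%. All 3 of these peaks were intronic and AT-rich, with a GC content from 36.3% to 40.5%. The Sox30 peak (chr11:45823576-45825926) had 152 tags at 5.58-fold, lay 30.4 kb from the TSS, and overlapped the Mtf2 peak in the same intron. In Mtf2-/- CD71+Ter119-/lo cells 4 members had one, Sox5, Sox6, Tbx5 and Tbr1, against 2.39%, and every peak of that list has an FDR of 100%. Long genes such as Sox5 and Sox6 have more room for a peak. Of all genes of at least 100 kb, 9.80% had one over the body in this list and 24.3% in the Mtf2-/- CD71+Ter119+ list. The Tbr1 peak (chr2:61650534-61651258) overlapped the most downstream WT CD71+Ter119+ peak of that gene and lay in an exon.

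The lists differed in how often the sequence at their summits occurs in the genome. At each summit 22 words of 32 bases were taken from the 200 bases around it and counted in NCBIM37 on both strands. At 6 of the 7 Mtf2 peaks over Sox genes at least 50% of the words occurred more than once. The CpG-rich Sox6 stretch printed above is one of these, and its words had a median of 459.5 copies. At the Mtf2-/- H3K27me3 peak in the Sox30 intron 95.5% of the words were repeated, while at the 2 peaks of that list in Sox6 introns 0% and 18.2% were. Of the Mtf2-/- CD71+Ter119-/lo peaks, 0 of 2 near a TSS and 1 of 4 over a gene body reached 50%. Likewise 0 of the 32 WT CD71+Ter119+ peaks near the members' TSS reached this share. In WT CD71+Ter119-/lo cells 1 of 12 did, the peak upstream of Tbx21, at which 81.8% of words were repeated.

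The peaks of all genes near a TSS divided in the same way. There 95.9% of the 1905 Mtf2 peaks near a TSS in CD71+Ter119-/lo cells and 90.4% of the 322 in CD71+Ter119+ cells lay at repeated words. For H3K27me3 the share was 75.8% in Mtf2-/- CD71+Ter119+ cells and 3.25% in WT CD71+Ter119+ cells. In CD71+Ter119-/lo cells it was 30.6% for WT and 17.0% for Mtf2-/-. The Mtf2 lists, which have no peak at a Sox or T-box start site, thus held near start sites mostly peaks at multi-copy sequence, and the part of this in the missing overlap was not tested.

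**Figure D5:**
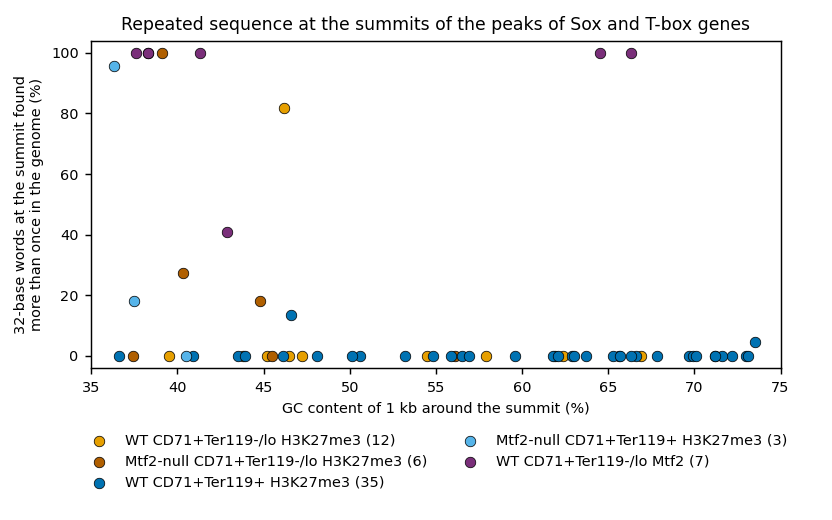
Each point is 1 peak near or over a member, by the GC content of 1 kb around its summit and the percent of its 22 summit words of 32 bases that occur more than once in the genome; colours are peak lists, with the number of peaks in brackets. WT CD71+Ter119+ H3K27me3 peaks lie along the bottom at every GC content, and 6 of the 7 Mtf2 points lie at 100%.

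Base composition around the TSS divided the members only in part. A start site was called CpG island-like when its surrounding 1 kb had a GC content of at least 50% and a ratio of observed to expected CpG of at least 0.6. Of the 33 members 23 had such a TSS, 13 Sox and 10 T-box. A WT CD71+Ter119+ peak lay at 15 of these 23, against 19.1% of all island-like genes, and at 4 of the other 10, against 4.82%. In both classes the share of members with a peak lay above that of all genes. The 4 marked members without an island-like TSS were Sox6, Sox17, Tbx4 and Tbr1.

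At the 5′-most TSS the median GC content was 62.5% for members with a peak and 59.5% for those without, and the median CpG ratio was 0.754 and 0.615. The order of the CpG ratios turned in 300 bases around the TSS, where they were 0.653 and 0.670. Several peak-free members were as CpG-rich as the marked ones. Sox12 had a GC content of 71.9% and a CpG ratio of 0.989, and the stretch printed above has the most CG of all 33. Sox8, Sox9, Sox5, Tbx3 and Mga, with ratios from 0.686 to 0.873, were also without a peak near a TSS. Summits of the WT CD71+Ter119+ peaks had a median GC content of 63.4%, close to the 63.8% over all genes, and 22 of 32 were island-like, against 65.7%. In the less mature fraction the median was 50.9%, against 49.1% over all genes, and 2 of 12 were island-like, against 18.3%. The members thus followed each list in its composition.

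Without any peak in any list, near a TSS or over the gene, were 11 members: Sox14, Sox12, Sox8, Sox9, Sox10, Sox15, Tbx19, Tbx10, Tbx3, Tbx6 and Mga. The other 22 had at least 1, against 34.1% of all genes. The whole SoxE subgroup, Sox8, Sox9 and Sox10, which acts in the testis, cartilage and neural crest, was among those without. With only 3 genes this does not set the subgroup apart from all genes. The WT CD71+Ter119+ peak nearest to a TSS of Sox9 lay 1280 kb away. For the 14 members without a peak in this list the nearest was 37.3 to 1280 kb away, so none lay just beyond the 5 kb limit.

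Relatives and partners of these factors were marked in part. Of 7 further HMG-box genes 3 had a WT CD71+Ter119+ peak near a TSS, against 12.0% of all genes. These were Tcf7, Tcf7l1 and Tcf7l2, while Lef1, Hbp1, Cic and Bbx had none. Of 9 partner genes 5 had one, Pou3f3, Pax6, Gata4, Nkx2-5 and Runx3, and Pou5f1, Pou3f2, Mef2c and Max did not. In Mtf2-/- CD71+Ter119+ cells Bbx alone of these 16 had a peak near a TSS, against 1.60% of all genes. The erythroid genes Klf1, Tal1, Epor, Tfrc, Slc4a1, Hba-a1 and Hbb-b1 had no peak near a TSS in any of the 6 lists. Of all genes 23.2% had one in at least 1 list. A peak list measures no transcript, so the identity of the sorted cells was not checked further.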

How the data were processed

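H3K27me3 and Mtf2 ChIP-seq of e14.5 fetal liver fractions was analysed from peak lists, with 6 ChIP and 4 IgG libraries mapped to conditions by their labels and 1 library per condition. The authors aligned reads with Bowtie2 2.2.3 to mm9 (NCBIM37) and called peaks with MACS 1.3.7 at a p cutoff of 1e-05, each ChIP against the IgG of its fraction and genotype, and the file headers name the alignments as masked. The study's methods mention replicates, and whether a list pools them is not given in the sources used here. As deposited, tag counts are raw reads per peak. Fold enrichment, a ratio of ChIP over local IgG, was computed by the authors' peak caller, and so were the score (-10 log10 of each p) and the FDR in percent. Within a fraction the WT H3K27me3 and the Mtf2 library were called against 1 common IgG library. ChIP libraries held 15669899 to 67169672 unique tags and IgG libraries 12345800 to 39667267. The fewest tags in any peak were 15 to 35 by library, which limits what each list could detect, and counts cover counting error only.

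Genes and TSS were taken from GENCODE M1 on NCBIM37, merged by symbol and chromosome (Sox4 has 2 identifiers), and 0 peaks lay beyond a chromosome end. Coordinates are 1-based. A gene had a peak when 1 base or more overlapped 5 kb around any TSS, or the gene body. Members and gene lists were chosen with earlier results of these data known, so no set test was made and counts are given beside the percent of all autosomal protein-coding genes. Genes given in full were the 5 of each family with the highest WT CD71+Ter119+ fold enrichment, those with a Mtf2-/- or Mtf2 peak near a TSS, and those known from blood or endothelium (Sox4, Sox6, Sox7, Sox13, Sox17, Sox18, Tbx21, Eomes); other values named were chosen after they were seen, as was the count of 32-base words. Marker lists of hepatocytes (Alb, Afp, Ttr), macrophages (Emr1, Csf1r, Cd68) and megakaryocytes (Pf4, Itga2b) were also read. The overlap and counting steps were tested on simulated data and matched brute force for 2000 of 2000 intervals and 200 of 200 words, and recovered 200 of 200 planted peaks. Alternatives were an FDR of 5% or less, a score of 100 or more, lists cut to equal length, a 1 kb window, the summit in place of the peak, TSS of coding transcripts only, and 300 bases for composition. Python 3.11.15, numpy, pandas, pysam and matplotlib were used. RNA-seq was not analysed here, and a marker gene and an intronic stretch are not reported here.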

Additional observations from a re-analysis of the deposited data

Results flagged for a closer look

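The peak calls near Eomes differed between genotypes in opposite directions in the 2 fractions, at separate places. In CD71+Ter119+ cells the Eomes start site had an H3K27me3 peak in WT (70 tags, 5.65-fold, FDR 24.74%) and none in Mtf2-/- cells. In CD71+Ter119-/lo cells Eomes had none in WT and a peak 3.14 kb upstream in Mtf2-/- cells (25 tags, 12.76-fold, FDR 100%). The 2 peaks do not overlap, 18.2% of the summit words of the second occur more than once in the genome, and with 1 library per condition the difference between the fractions was not tested.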

How the results depend on the processing

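Of 33 alternative values that could have changed, 27 stayed, which for a count means within 1.5 times the reported one. Among them was every count for WT CD71+Ter119+ cells, which ran from 8 to 10 Sox and from 6 to 9 T-box genes. The other 12 concern the counts of 0 for Mtf2-/- CD71+Ter119+ and Mtf2 peaks near a TSS, which alternatives that only remove peaks or narrow the window cannot change, so they say nothing of stability. Those that moved were the WT CD71+Ter119-/lo count of 10, which became 0 at a score of at least 100, 0 at an FDR of at most 5%, 2 with equal numbers of peaks and 5 within 1 kb, and the count of 3 genes with a Mtf2 peak over the body, which became 1 with equal numbers of peaks. Composition, which is not a count, also moved, by a rule of its own: the median GC content with a peak shifted by more than the counting error of 1 kb. In 300 bases around the TSS the median GC content was 66.4% with a peak and 63.3% without, and the CpG ratios changed order (0.653 and 0.670). Because equal numbers keep 1407 peaks of each H3K27me3 list and 5309 of each Mtf2 list, they test fewer peaks; for composition the cause was not tested. No paired analysis was possible because each condition has 1 library and no result comes from a test. The fewest tags that made a peak ranged from 15 to 35 between lists, so a weaker enrichment could have gone uncalled in each.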

Other observations

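Of the marker genes of other fetal liver cell types, 3 of 8 had a peak near a TSS in at least 1 list, where 23.2% of all genes had one. Of 3 hepatocyte genes 1, Afp, had a Mtf2 peak in CD71+Ter119-/lo cells and none had an H3K27me3 peak. Of 3 macrophage genes 1, Emr1, had a peak in Mtf2-/- CD71+Ter119-/lo cells only. Of 2 megakaryocyte genes 1, Itga2b, had a peak in WT CD71+Ter119-/lo cells only. Among the HMG-box genes Bbx had a Mtf2 peak in CD71+Ter119-/lo cells as well as its Mtf2-/- H3K27me3 peak in CD71+Ter119+ cells. Among the partner genes Nkx2-5 had a Mtf2-/- peak in CD71+Ter119-/lo cells, and Pax6 and Gata4 had WT peaks in both fractions.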
